A study of Mus musculus with 4 samples.

Results

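The Hox genes were followed in single-cell transcriptomes of primary spermatogonial cultures of mice. A gene was taken as a member when its symbol was Hox, a cluster letter from a to d and a number, which gave 39 of the 32285 genes in the feature table, with 11 in cluster A, 10 in B, 9 in C and 9 in D. The cultures came from testes of male pups at postnatal day 6, from which Thy1-positive cells, a fraction rich in spermatogonia that have not begun to differentiate, were plated over STO cells. STO, an established fibroblast line of mouse embryos, forms the feeder layer. Vehicle cultures received PBS, and EV cultures received 1 μg/mL of extracellular vesicles from testes at postnatal day 7 (PND7 testis EVs), each for 3 days. A culture was established from 3 pups, and the vesicles came from whole testes and so from several cell types.

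Hox genes encode homeodomain transcription factors that set the identity of segments along the body axis. In mammals they lie in 4 clusters, in which the order along the chromosome runs parallel to the order of expression along the embryo, low paralogue numbers being anterior and high numbers posterior. Fibroblasts keep the Hox code of the body region they came from. The proteins bind DNA with cofactors of the TALE class such as Pbx and Meis, Cdx factors activate trunk Hox genes in the embryo, and Polycomb and Trithorax complexes hold the clusters in a repressed or active state.

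The libraries analysed were vehicle 1, vehicle 2 and EV 1, and expression in EV 2 was not analysed here. After filtering, 8263, 8637 and 4779 cells were kept. Cells were classed as germ cells when Dazl, Tex15, Stk31 and Epcam gave at least 2 UMIs (unique molecular identifiers, 1 per captured RNA molecule) and more than Col1a1, Col1a2, Sparc and Dcn, and as feeder cells in the reverse case. This gave 4411, 4783 and 227 germ cells and 2357, 2473 and 2508 feeder cells. Their UMIs, summed over cells, reached 9445041, 11013433 and 325012 in germ cells and 9560631, 10756382 and 6784725 in feeder cells, so the germ values of EV 1 rest on far fewer molecules than all others. Levels are given as CPM, the UMIs of a gene per 1000000 UMIs of the class in that library, always in the order vehicle 1, vehicle 2 and EV 1. A count of 0 in the germ cells of EV 1 allows a level of up to 9.23 CPM (3 counts). All intervals are 95% intervals and cover counting error only.

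The names of the classes were checked with markers that the class rule did not use. The sum of 6 germ cell genes (Ddx4, Dnd1, Sall4, Mael, Tdrd5 and Taf4b) was 522, 527 and 511 CPM in germ cells and 16.3, 13.4 and 3.39 CPM in feeder cells. The sum of 11 fibroblast genes was 1763, 1849 and 1766 CPM in feeder cells and 225, 212 and 338 CPM in germ cells. Single genes of this list varied widely. In vehicle germ cells they ran from 3.35% and 3.17% (Col5a2) to 159% and 154% (Fbn1) of their feeder level. In EV 1 germ cells they ran from 0% to 418% (Postn), so some went against the sum. Genes of the Y chromosome stood at 176, 182 and 194 CPM in germ cells and at 4.29, 4.09 and 0.442 CPM in feeder cells. The Sertoli list reached 410, 423 and 406 CPM in feeder cells, with its defining gene Amh at 0 in vehicle 1 and EV 1. The part of such cells in the Hox levels of the feeder class was not tested.

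To show what the clusters look like at their start sites, the promoters of 4 members are printed, Hoxb8 and Hoxb4 for the germ cells and Hoxa5 and Hoxa2 for the feeder cells. Each run is the 250 bases before the RefSeq start (build GRCm38.p6), 5′ to 3′ on the strand of the gene. Capitals mark matches on either strand to TATAAA (bound by the TATA-binding protein), CCAAT (bound by NF-Y), GGGCGG (bound by Sp1), TGATTNAT (a site of Hox and Pbx dimers) or TTTATG (a Cdx site), and matches of different motifs did not overlap here.
Hoxb8 (chr11:96281655-96281904, plus strand, in no annotated gene): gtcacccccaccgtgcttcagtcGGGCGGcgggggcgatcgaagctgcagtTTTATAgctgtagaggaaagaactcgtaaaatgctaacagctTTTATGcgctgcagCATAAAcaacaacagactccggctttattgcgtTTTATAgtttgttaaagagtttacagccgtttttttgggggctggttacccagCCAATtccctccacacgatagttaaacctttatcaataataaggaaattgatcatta
Hoxb4 (chr11:96318017-96318266, plus strand, in no annotated gene): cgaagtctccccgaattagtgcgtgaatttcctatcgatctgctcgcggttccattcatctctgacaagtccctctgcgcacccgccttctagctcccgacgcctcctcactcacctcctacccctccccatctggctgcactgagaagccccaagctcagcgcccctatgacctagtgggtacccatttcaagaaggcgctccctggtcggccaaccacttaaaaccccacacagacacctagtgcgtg
Hoxa5 (chr6:52204588-52204837, minus strand, within an intron of Hoxa3 and across from the antisense gene Hoxaas3): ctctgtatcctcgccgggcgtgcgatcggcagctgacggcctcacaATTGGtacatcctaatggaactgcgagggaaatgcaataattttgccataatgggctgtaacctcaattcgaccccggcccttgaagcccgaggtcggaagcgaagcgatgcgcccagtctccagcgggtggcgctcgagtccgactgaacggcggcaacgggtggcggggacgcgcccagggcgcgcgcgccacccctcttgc
Hoxa2 (chr6:52164832-52165081, minus strand, within the gene model Gm28308 but in none of its exons): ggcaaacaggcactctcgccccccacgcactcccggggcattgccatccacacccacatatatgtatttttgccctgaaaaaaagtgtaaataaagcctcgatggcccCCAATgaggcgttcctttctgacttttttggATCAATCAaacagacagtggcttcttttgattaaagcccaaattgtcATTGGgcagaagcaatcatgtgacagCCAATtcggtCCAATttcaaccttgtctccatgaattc
The Hoxb8 window held 2 matches to TTTATG and 2 to TATAAA, the Hoxa2 window held 4 CCAAT boxes and 1 match to TGATTNAT, and the Hoxb4 window held none of the 5 motifs. RefSeq promoters were at hand for 22 of the 39 members (24 windows). TTTATG occurred in 5 of these windows against 10.8% of the 32851 windows of all genes, TATAAA in 4 against 12.4%, CCAAT in 14 against 33.8%, GGGCGG in 10 against 32.7% and TGATTNAT in 2 against 2.82%. These matches describe the letters only. Like the Hoxa2 window, that of Hoxa5 also lies within the gene model Gm28308 but in none of its exons.

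To ask which Hox genes each cell class carried, the UMIs were read by cluster and paralogue number. The germ cells carried almost purely HoxB transcripts, and the feeder cells carried mainly HoxA transcripts. Summed over the 39 genes, the level was 274, 275 and 178 CPM in germ cells and 165, 164 and 120 CPM in feeder cells. Cluster B gave 260, 263 and 145 CPM in germ cells, which was 94.8%, 95.6% and 81.0% of their Hox UMIs. In feeder cells cluster A gave 90.4, 91.6 and 56.7 CPM, cluster B 45.4, 41.6 and 34.0, cluster C 26.99, 28.1 and 27.3, and cluster D 2.30, 2.32 and 2.21. As a mean of the vehicle libraries, clusters A, B, C and D held 55.4%, 26.5%, 16.8% and 1.41% of the Hox UMIs of feeder cells.

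**Figure D1:**
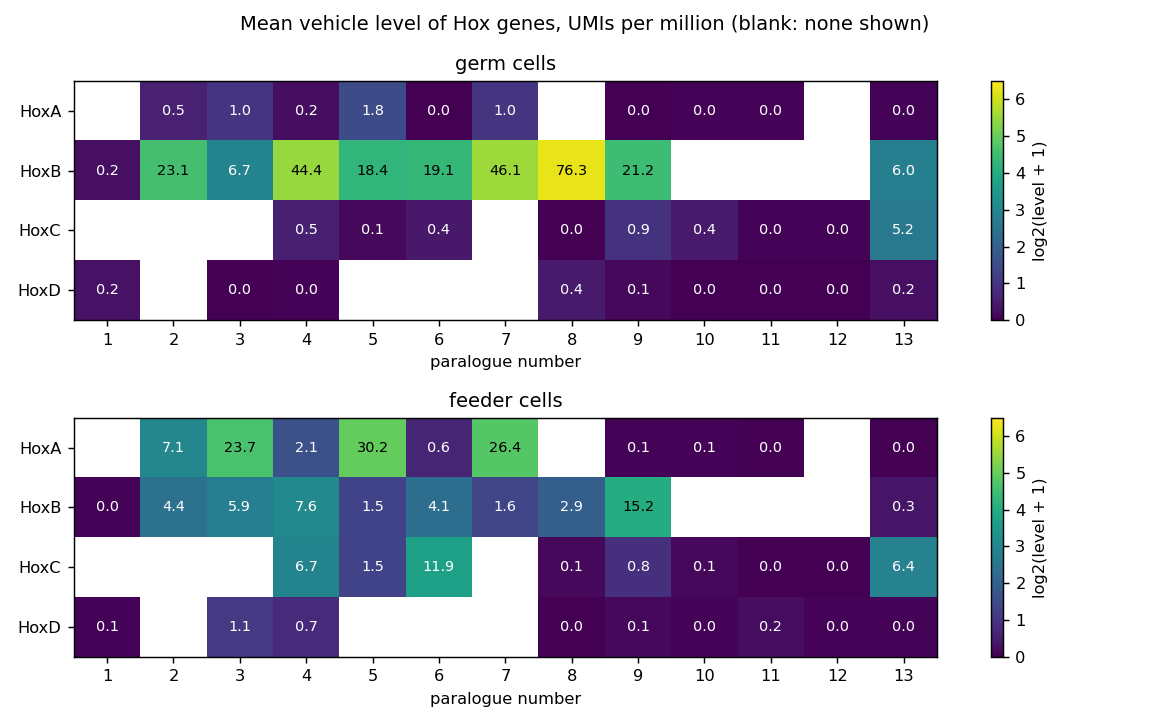
Mean level of Hox genes in the 2 vehicle libraries (printed in CPM, coloured by log2 of the level plus 1), by cluster (rows) and paralogue number (columns), for germ cells above and feeder cells below. In germ cells the high values lie in the HoxB row from paralogue 2 to 9, and in feeder cells the highest values are Hoxa5, Hoxa7, Hoxa3, Hoxb9 and Hoxc6.

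The paralogue groups were then read along the clusters. Paralogues 8 to 13 gave 111, 110 and 61.5 CPM in germ cells, or 40.6%, 40.1% and 34.5% of their Hox UMIs. In feeder cells the same paralogues gave 26.6, 26.0 and 18.3 CPM, or 16.1%, 15.9% and 15.2%. The share was lower in feeder cells in each of the 3 libraries. Paralogue group 8 alone held 28.9% and 26.96% of the Hox UMIs of the vehicle germ cells and 2.15% and 1.48% of those of the vehicle feeder cells. The lower share in feeder cells rested on this group, since paralogues 9 to 13 held 11.7%, 13.2% and 13.8% in germ cells and 13.9%, 14.4% and 14.5% in feeder cells. Paralogue group 3 held 18.8% and 18.5% in vehicle feeder cells and 2.74% and 2.84% in vehicle germ cells. Genes of paralogues 10 to 12 were close to silent in both classes, with 1 to 10 UMIs each over all 6 sums.

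Of the 39 members, 16 had at least 100 UMIs, 23 had 1 to 99, and none was without a UMI. The 22 members with at least 20 UMIs were tested between feeder and germ cells with edgeR's quasi-likelihood test, the library as a block and Benjamini-Hochberg adjustment over all 18173 genes that reached the same minimum. The classes differ in most of the transcriptome, and 40.4% of all genes tested were called higher in feeder cells and 38.3% higher in germ cells. Among the members, 12 were called higher in feeder cells, 7 higher in germ cells and 3 in neither direction. The calls followed the cluster. All 6 tested HoxA genes, 4 of 5 HoxC genes and both HoxD genes were higher in feeder cells, whereas 7 of 9 HoxB genes were higher in germ cells. The median log2 difference, feeder minus germ, was 4.26 for cluster A, -2.20 for B and 4.08 for C, beside 0.04 over all genes. No median is given for cluster D, whose 2 tested genes had 0 and 1 UMIs in germ cells. Without TMM factors (the scaling of libraries to one another) this overall median moved to -0.36, and the counts over all genes moved to 5864 higher in feeder and 8873 higher in germ cells, from 7339 and 6966. The counts of members were then 11 and 8.

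**Figure D2:**
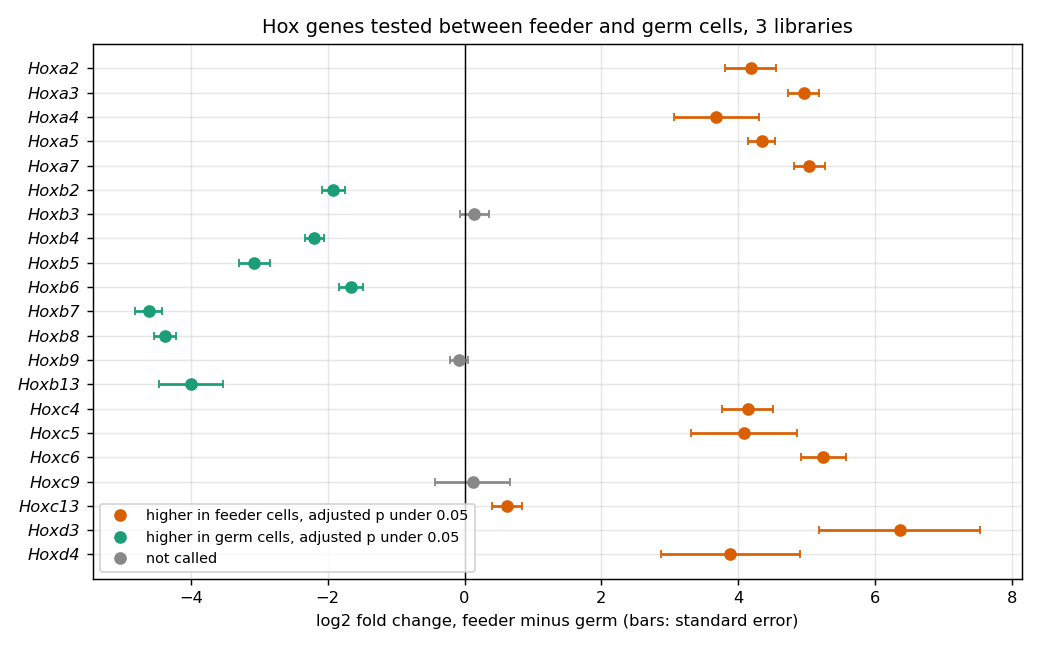
Log2 fold change between feeder and germ cells of Hox genes tested, with the standard error, in 3 libraries. HoxA, HoxD and most HoxC genes lie right of 0, HoxB genes lie left of 0 or at it, and Hoxb3, Hoxb9 and Hoxc9 were not called.

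Hoxb8, a trunk gene whose enforced expression keeps myeloid progenitors dividing, was the member with most UMIs in the germ cells of both vehicle libraries. In EV 1 it had 12 UMIs, beside 14 for Hoxb4. The level of Hoxb8 was 78.8, 73.8 and 36.9 CPM in germ cells and 3.56, 2.23 and 0.884 CPM in feeder cells. The log2 difference was -4.38 ± 0.16 (SE, adjusted p 9.17e-165). Hoxb7, its neighbour, stood at 45.7, 46.5 and 21.5 CPM in germ cells and at 2.41, 0.744 and 0.147 CPM in feeder cells (-4.62 ± 0.20, adjusted p 1.69e-119). No library of one class reached the other for either gene. Both lie on chromosome 11 of mm10, Hoxb8 at 96281905 to 96285315 and Hoxb7 at 96286623 to 96290162.

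Hoxb4, known for expanding haematopoietic stem cells, stood in germ cells at 42.6, 46.2 and 43.1 CPM against 8.995, 6.23 and 5.31 CPM in feeder cells (-2.20 ± 0.14, adjusted p 2.60e-56). Hoxb2, which patterns the hindbrain, gave 24.2, 22.0 and 12.3 CPM in germ cells and 3.87, 5.02 and 4.27 CPM in feeder cells (-1.92 ± 0.17, adjusted p 6.84e-29). Hoxb5 gave 17.0, 19.7 and 6.15 CPM in germ cells and 1.46, 1.49 and 1.77 CPM in feeder cells (-3.07 ± 0.23, adjusted p 1.10e-40). The germ cell values were above the feeder cell values in all 3 libraries for these 3 genes, with 2 UMIs behind the EV 1 germ value of Hoxb5 and 4 behind that of Hoxb2. Hoxb6 was above in both vehicle libraries, at 19.4 and 18.9 CPM against 3.97 and 4.18. In EV 1 it had no UMI in germ cells, which allows up to 9.23 CPM, and stood at 6.63 CPM in feeder cells, so no order could be read there (-1.66 ± 0.18, adjusted p 2.60e-20). With DESeq2 the adjusted p of Hoxb6 was 0.209.

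Hoxb13, the most posterior HoxB gene, known for its part in the prostate and the tail end of the axis, was low in germ cells at 5.82, 6.08 and 3.08 CPM and lower in feeder cells at 0.314, 0.279 and 0 CPM (-4.00 ± 0.47, adjusted p 3.46e-17). It lies apart from the rest of the cluster, at 96194316 to 96197447 of chromosome 11. Hoxb1, at the other end, had 6 UMIs in all and was not tested.

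Hoxb3 and Hoxb9 set themselves apart from the other HoxB genes in that no difference was called. Hoxb9, which patterns the thoracic ribs, stood at 19.5, 23.0 and 6.15 CPM in germ cells and at 15.2, 15.2 and 10.8 CPM in feeder cells (-0.09 ± 0.13, adjusted p 0.561). It was higher in germ cells in the vehicle libraries. The EV 1 germ value was 2 UMIs (0.745 to 22.2 CPM), so no order could be read there. Hoxb3 gave 6.78, 6.63 and 12.3 CPM in germ cells and 5.65, 6.14 and 4.27 CPM in feeder cells (0.14 ± 0.21, adjusted p 0.540). The direction of both turned under some settings, and without TMM factors Hoxb9 was called higher in germ cells (-0.47, adjusted p 0.00145). Set against the median of all genes under that scaling, Hoxb9 stood at -0.11 there and at -0.12 with TMM factors.

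**Figure D3:**
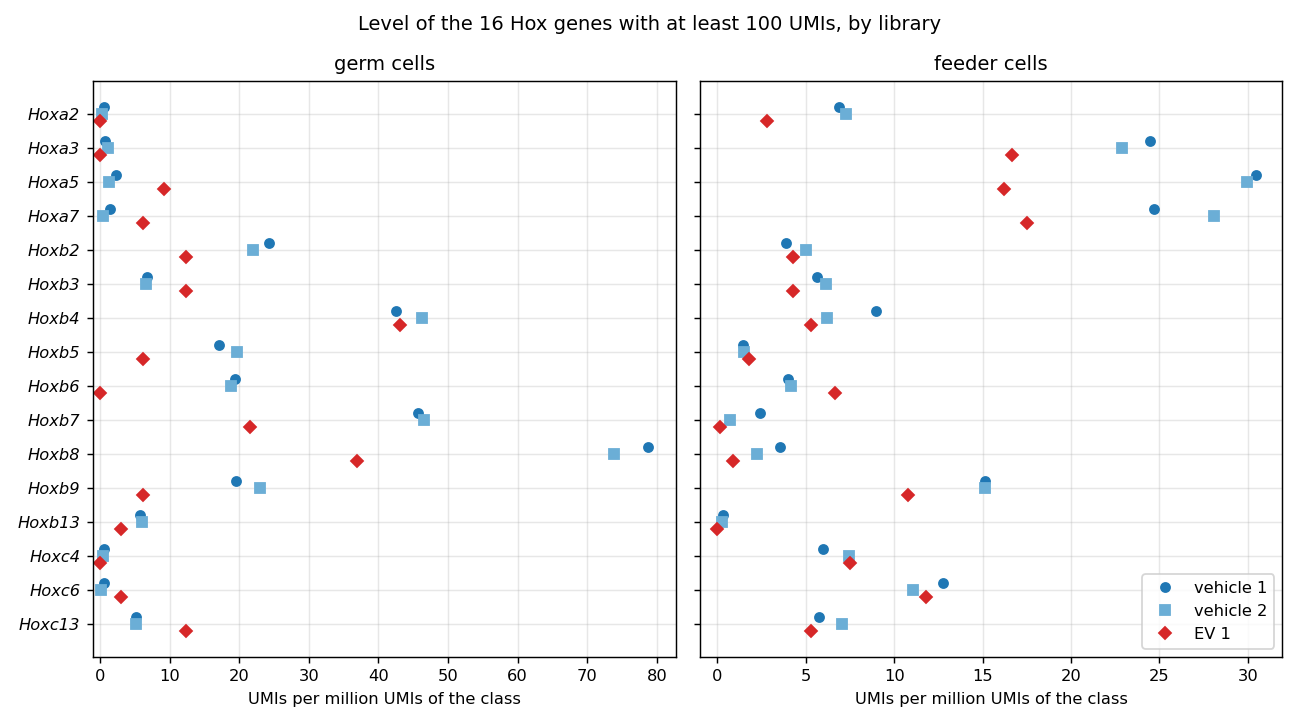
Level of the 16 members with at least 100 UMIs in each library (CPM), germ cells on the left and feeder cells on the right, on axes of different length. Circles and squares are the vehicle libraries and diamonds are EV 1. Hoxb8, Hoxb7 and Hoxb4 reach 36.9, 21.5 and 42.6 CPM or more in germ cells, and Hoxa5, Hoxa7 and Hoxa3 lead in feeder cells.

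In the feeder cells of both vehicle libraries Hoxa5, which is needed for lung and trachea, had most UMIs. In EV 1 it had 110, beside 119 for Hoxa7 and 113 for Hoxa3. Hoxa5 stood at 30.4, 29.9 and 16.2 CPM against 2.33, 1.27 and 9.23 CPM in germ cells (4.34 ± 0.19, adjusted p 8.33e-110). Hoxa7, a trunk gene, followed at 24.7, 28.1 and 17.5 CPM against 1.48, 0.454 and 6.15 CPM (5.04 ± 0.22, adjusted p 8.57e-110). The EV 1 germ values of these 2 genes were 3 and 2 UMIs. Hoxa3, which is needed for the thymus and parathyroid, gave 24.5, 22.9 and 16.7 CPM against 0.741, 1.18 and 0 CPM (4.96 ± 0.23, adjusted p 4.85e-100). Its gene model spans Hoxa4, Hoxa5 and Hoxa6 on the same strand, so the count of reads within the shared stretch is uncertain for these genes. How such reads were handled, and whether introns were counted, is not given in the sources used here. Hoxa2, the selector of the second pharyngeal arch, gave 6.90, 7.25 and 2.80 CPM against 0.635, 0.363 and 0 CPM (4.19 ± 0.37, adjusted p 1.43e-28). The feeder cells were above the germ cells in both vehicle libraries for all 4 genes. In EV 1 the order of Hoxa2 could not be read, since its 2.80 CPM in feeder cells lies under the 9.23 CPM that a count of 0 allows in germ cells.

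Of cluster C, Hoxc6, a thoracic gene also known from the mammary gland, gave 12.8, 11.1 and 11.8 CPM in feeder cells and 0.529, 0.182 and 3.08 CPM in germ cells (5.25 ± 0.33, adjusted p 7.29e-56). Hoxc4 gave 5.96, 7.44 and 7.52 CPM in feeder cells and 0.529, 0.454 and 0 CPM in germ cells (4.14 ± 0.37, adjusted p 4.73e-28). Hoxc13, which is needed for hair and nails, behaved otherwise, with 5.75, 7.07 and 5.31 CPM in feeder cells and 5.19, 5.18 and 12.3 CPM in germ cells (0.63 ± 0.22, adjusted p 0.00613). Its groups overlapped, and the call was lost with DESeq2 (adjusted p 0.324), without the library block (0.0546), without TMM factors (0.301), without vehicle 1 (0.319) and without vehicle 2 (0.623).

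Among the 23 members with fewer than 100 UMIs, 6 were tested. Hoxa4 (59 UMIs), Hoxc5 (44), Hoxd3 (31) and Hoxd4 (22) were called higher in feeder cells, with log2 differences of 3.68 ± 0.62, 4.08 ± 0.77, 6.36 ± 1.18 and 3.89 ± 1.02. Hoxd3 had 9, 14 and 8 UMIs in feeder cells and none in germ cells, so its fitted difference depends on the prior count. The gene models of Hoxd3 and Hoxd4 overlap on the same strand, and that of Hoxa4 lies within Hoxa3. That of Hoxc5 overlaps Hoxc6, Hoxc8, Hoxc9 and Hoxc10, so the count of reads within these stretches is uncertain. Hoxd4 lost the call with DESeq2. Hoxc9 (43 UMIs) was not called (0.12 ± 0.55, adjusted p 0.850). The other 17 members had 1 to 15 UMIs over the 6 sums and were not tested. Of these, Hoxa6 had all of its 15 UMIs in feeder cells and Hoxd8 all of its 8 in germ cells. Hoxc10 had 8 of its 10 UMIs in vehicle germ cells.

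Levels of different genes depend on whether length is taken into account, and how far these UMI counts grow with length was not tested. Divided by the exon length in GENCODE M21, the mean vehicle level in germ cells was 29.9 CPM per kilobase for Hoxb7, 29.0 for Hoxb8, 17.3 for Hoxb4, 9.74 for Hoxb6, 8.25 for Hoxb9, 6.63 for Hoxb2, 6.60 for Hoxb5, 2.70 for Hoxb13, 2.11 for Hoxc13 and 1.58 for Hoxb3. The first and second, and Hoxb2 and Hoxb5, differed by less than the spread of the vehicle libraries. In feeder cells the same measure was 16.1 for Hoxa5, 9.17 for Hoxa7, 5.89 for Hoxb9, 4.95 for Hoxc6, 3.99 for Hoxa2, 3.94 for Hoxa3, 2.97 for Hoxb4, 2.61 for Hoxc4 and 2.60 for Hoxc13. Here Hoxa2 and Hoxa3, and Hoxb4, Hoxc4 and Hoxc13, did not differ beyond that spread. In counts not divided by length, Hoxb8 came before Hoxb7 in germ cells and Hoxa3 before Hoxb9 and Hoxc6 in feeder cells.

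Free RNA in the droplets can give a cell UMIs of the other class, so the level of each class's markers outside the class rule was read in the other class. Free RNA itself was not measured. Over 6 germ cell markers the level in feeder cells was 3.12%, 2.54% and 0.664% of that in germ cells, with single genes between 2.14% and 4.24%, 1.45% and 4.60%, and 0.168% and 1.60%. Hoxb8 stood in feeder cells at 4.5%, 3.0% and 2.4% of its germ level and Hoxb7 at 5.3%, 1.6% and 0.7%, in or near that range in the vehicle libraries. Hoxb4, Hoxb2 and Hoxb6 lay well above it, at 21.1%, 15.96% and 20.5% in vehicle 1 and 13.5%, 22.8% and 22.2% in vehicle 2. In the other direction, 11 fibroblast markers reached 12.8%, 11.5% and 19.2% of their feeder level in germ cells, with a wide range between genes, from 3.35% for Col5a2 to 159% for Fbn1 in vehicle 1. Cluster A reached 6.09%, 4.36% and 27.1%. In the vehicle libraries it was thus below the fibroblast sum and above the lowest of these genes, Col5a2, which stood at 3.35% and 3.17%. In EV 1 it rested on 5 UMIs. How much of the HoxA level of germ cells is free RNA was not tested.

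To ask how many cells carried the transcripts, each cell was thinned to 1000 UMIs, which left out 146, 112 and 49 germ cells and 86, 56 and 184 feeder cells. A HoxB UMI was found in 19.7% (18.5 to 20.9), 19.5% (18.4 to 20.7) and 14.04% (9.70 to 19.9) of germ cells and in 4.10%, 3.97% and 3.18% of feeder cells. A HoxA UMI was found in 7.93% (6.88 to 9.11), 9.93% (8.80 to 11.2) and 5.21% (4.37 to 6.19) of feeder cells and in 0.539%, 0.385% and 2.25% of germ cells. The median depth before thinning was 1936, 2091 and 1322 UMIs in germ cells and 3635, 3896 and 2448 in feeder cells. Without thinning, HoxB was found in 31.4%, 33.7% and 15.9% of germ cells and HoxA in 28.7%, 30.5% and 13.8% of feeder cells.

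HoxB transcripts were spread unevenly over the germ cells. At 1000 UMIs per cell the variance of the HoxB count was 1.32, 1.35 and 1.33 times its mean. Were the counts even, 22.5% and 22.6% of vehicle germ cells would have carried a HoxB UMI. A Hoxb4 UMI was found in 10.1% and 8.82% of vehicle germ cells with a Hoxb8 UMI and in 3.44% and 3.85% of those without. A Hoxb7 UMI was found in 7.49% and 10.1% with Hoxb8 and in 3.97% and 4.01% without. In feeder cells a Hoxa7 UMI was found in 4.62% and 2.35% of vehicle cells with a Hoxa5 UMI and in 1.90% and 2.87% without. These shares are a description, since cells of a library are not replicates.

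The germ cells were therefore split by genes that mark their state, a split added after the data had been seen. HoxB was lower in cells with a UMI of Stra8 or Kit, which mark spermatogonia entering differentiation. It stood at 192 CPM (177 to 207) and 199 CPM (185 to 213) in the vehicle cells with such a UMI and at 298 CPM (284 to 312) and 301 CPM (288 to 314) in those without. It was higher in cells with a UMI of Gfra1, Id4 or Etv5, which mark undifferentiated spermatogonia, at 303 and 297 CPM against 220 and 226 CPM without. The intervals of the 2 kinds of cell did not overlap in either vehicle library for either split. In cells with 2000 to 3000 UMIs, which removes most of the difference in depth, the level with Stra8 or Kit was 0.59 and 0.66 times that without, beside 0.64 and 0.66 times at all depths.

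The split was also read for single HoxB genes. Hoxb8 in cells with Stra8 or Kit was at 0.66 and 0.66 times its level in the others, Hoxb4 at 0.66 and 0.67, Hoxb9 at 0.59 and 0.63 and Hoxb2 at 0.51 and 0.61, with intervals below 1 in both vehicle libraries. The intervals of Hoxb3 included 1 in both (0.77, 0.42 to 1.34, and 0.68, 0.39 to 1.14), and that of Hoxb6 did so in vehicle 2 (0.76, 0.56 to 1.03). For Hoxb13 the ratios were 0.96 and 0.93, with intervals from 0.52 to 1.72 and from 0.54 to 1.57. In cells with 2000 to 3000 UMIs the intervals of Hoxb3, Hoxb4 and Hoxb13 included 1 in both vehicle libraries, as did those of Hoxb9 in vehicle 1 and Hoxb5 and Hoxb6 in vehicle 2, where Hoxb6 stood at 1.13. Those of Hoxb2, Hoxb7 and Hoxb8 were below 1 in both. Cluster A, low in germ cells, gave 1.23 and 0.87 with intervals that included 1. Cells with a UMI of the cycling genes Mki67 or Top2a had 247 and 252 CPM of HoxB against 299 and 299 CPM in those without. In EV 1 the splits left 8 to 39 HoxB UMIs a side, and their intervals overlapped.

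**Figure D4:**
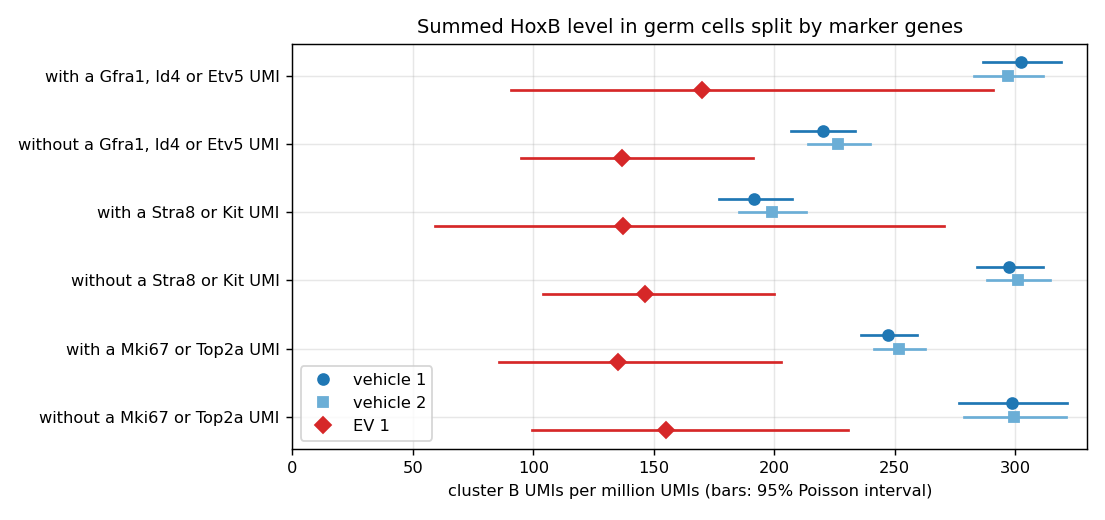
Summed level of the 10 HoxB genes (CPM, with exact Poisson intervals) in germ cells with and without a UMI of marker genes, by library. In both vehicle libraries the level is above 280 CPM in cells with Gfra1, Id4 or Etv5 and in cells without Stra8 or Kit, and below 240 CPM in their counterparts, while EV 1 has wide intervals.

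To ask whether PND7 testis EVs changed the Hox genes, EV 1 was set against the vehicle mean in each class. Of the EV arm 1 library was analysed here, so no test was run and a difference has no replicate check. In feeder cells the HoxA genes were lower in EV 1 while the HoxC genes were not. Cluster A stood at 56.7 CPM beside 91.0 ± 0.85 (SD, n = 2), 0.624 times the pooled vehicle level (0.557 to 0.696). Cluster B was at 0.785 times (0.676 to 0.909), cluster C at 0.989 times (0.833 to 1.17) and cluster D at 0.956 times (0.496 to 1.74). The vehicle libraries differed from each other by a log2 ratio of 0.02 in cluster A and 0.06 in cluster C, and EV 1 from their mean by -0.68 and -0.01.

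All 4 HoxA genes with at least 100 UMIs lay below both vehicle libraries in the feeder cells of EV 1. Lower values were common in these cells. Of all 15265 genes measured there, 61.6% stood under the mean of the vehicle libraries, as did 13 of 21 members. On the log2 scale EV 1 differed from the mean of the vehicle libraries by -1.31 for Hoxa2, -0.89 for Hoxa5, -0.59 for Hoxa7 and -0.50 for Hoxa3, and the intervals of the ratio excluded 1 for each. Hoxb9 was also lower (-0.49, 0.542 to 0.919 times). Hoxb6 was higher, at 6.63 CPM beside 4.08 ± 0.15 (0.70, 1.10 to 2.36 times). Hoxc6 and Hoxc4 gave -0.01 and 0.17, with intervals from 0.762 to 1.29 times and from 0.792 to 1.55 times. Hoxb7 and Hoxb8 stood at 0.147 and 0.884 CPM (1 and 6 UMIs) beside 1.57 ± 1.18 and 2.89 ± 0.94 CPM, and the 6 germ cell markers in feeder cells stood at 16.3, 13.4 and 3.39 CPM. The part of free RNA in these 2 values was not tested.

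Past 2-fold, 0 of 21 members measured in feeder cells were higher in EV 1 and 3 were lower (Hoxa2, Hoxb7 and Hoxb8), beside 3.8% and 6.33% of all 15265 genes. The median log2 ratio was -0.10 over the members and -0.12 over all genes. Metallothionein RNA differed between the libraries, as 1883 of the 2508 feeder cells of EV 1 had a Mt1 and Mt2 share above the median of all feeder cells, beside 887 of 2357 and 899 of 2473 in the vehicle libraries. Among cells at or below that median, cluster A stood at 91.0, 90.9 and 71.3 CPM and cluster C at 29.0, 32.6 and 42.7 CPM. Among cells above it, cluster A stood at 89.4, 92.7 and 52.6 CPM and cluster C at 23.6, 20.2 and 22.9 CPM. The part of this difference, and of depth, in the HoxA ratio was not tested.

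**Figure D5:**
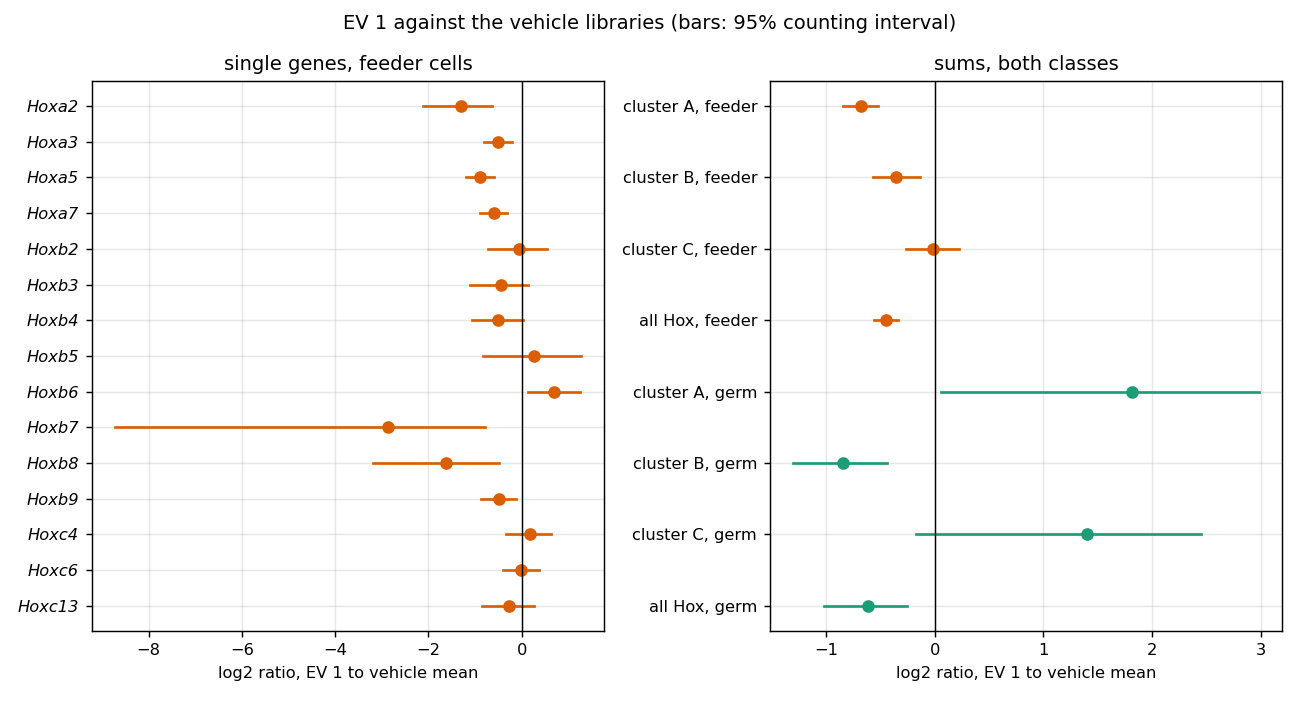
EV 1 over the mean of the vehicle libraries as a log2 ratio (points) with the counting interval of the ratio to the pooled vehicle libraries (bars), for single genes in feeder cells on the left and for sums on the right. The 4 HoxA genes and cluster A lie left of 0 in feeder cells, cluster C lies at 0, and HoxB lies left of 0 in germ cells.

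In germ cells the HoxB sum was lower in EV 1, at 145 CPM (106 to 192, 47 UMIs) beside 261 ± 2.07 CPM (SD, n = 2), or 0.553 times (0.406 to 0.736). Hoxb8 and Hoxb7 gave log2 ratios of -0.989 and -1.0003 from 12 and 7 UMIs. Hoxb4 stood at 43.1 CPM beside 44.4 ± 2.58 (0.01), with an interval from 0.527 to 1.63 times. Hoxb6 had no UMI in EV 1 germ cells and was at least 2.07-fold lower, with 3 counts as the limit. The exact interval of its ratio, which also covers the counting error of the vehicle libraries, reached up to 0.597 times. Of 14 members measured, 5 were over 2-fold higher and 4 over 2-fold lower, beside 17.1% and 5.96% of all 15544 genes, and the 5 higher ones (Hoxa5, Hoxa7, Hoxb3, Hoxc9 and Hoxc13) had 1 to 4 UMIs in EV 1. The 4 lower ones were Hoxb5, Hoxb6, Hoxb7 and Hoxb9 with 2, 0, 7 and 2 UMIs, and the intervals of Hoxb5 (0.0402 to 1.21 times) and Hoxb9 (0.0348 to 1.05 times) included 1. Fibroblast markers were also higher in these cells, the 11 outside the class rule standing at 225, 212 and 338 CPM with Pdgfrb and Mmp2 at 0 in EV 1. Single markers in EV 1 germ cells ranged from 0% to 418% (Postn) of their feeder level, so the sum does not stand for each of them. Their part in the HoxA and HoxC values was not tested.

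Genes that act with or upon the Hox genes were read from fixed lists. Their counts stand beside 40.4% of all genes called higher in feeder cells and 38.3% higher in germ cells. All 9 TALE cofactors were tested, and 6 were higher in feeder cells and 3 in germ cells. Meis1, a partner of posterior Hox proteins, stood at 207, 228 and 173 CPM in feeder cells and 6.14, 5.08 and 3.08 CPM in germ cells (5.67 ± 0.21), and Meis2 differed by 5.86 ± 0.22. Pbx3 went the other way, at 126, 127 and 92.3 CPM in germ cells and 51.0, 46.9 and 44.8 CPM in feeder cells (-0.90 ± 0.12). Of the 3 caudal genes Cdx1 had 35 UMIs, 31 of them in vehicle germ cells (-2.70 ± 0.73), Cdx4 had 2 and Cdx2 had none. The Cdx1 call was lost with DESeq2.

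Of 23 Polycomb genes, 14 were higher in germ cells, 5 in feeder cells and 4 in neither, beside 38.3% and 40.4% of all genes. The accessory subunit Mtf2 (-1.46 ± 0.15), the histone binder Rbbp4 (-1.44 ± 0.16) and the core subunit Suz12 (-0.58 ± 0.15) were higher in germ cells, and Rbbp7 was not called (-0.28 ± 0.15, adjusted p 0.081). Of 12 Trithorax and H3K27 demethylase genes, 8 were higher in germ cells, 1 in feeder cells and 3 in neither. The methyltransferase Kmt2a (-0.53 ± 0.15) and the complex subunit Dpy30 (-0.95 ± 0.14) were higher in germ cells, and neither Kmt2c (0.27 ± 0.15) nor Ash1l (0.24 ± 0.16) was called. The medians of these 2 lists were -0.58 and -0.65, beside 0.04 over all genes.

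Other genes that lie in or beside the clusters were read in the same way. Of 26 names listed, 16 were in the feature table and 10 were tested, with 4 higher in feeder cells, 4 in germ cells and 2 in neither, which is close to the 40.4% and 38.3% of all genes. Hotairm1, a noncoding RNA of cluster A, was higher in feeder cells like cluster A, at 65.8, 61.2 and 102 CPM against 11.9, 10.2 and 18.5 CPM (2.91 ± 0.13). In EV 1 feeder cells it stood above both vehicle libraries, whereas Hoxa2 to Hoxa7 summed to 0.617 times (0.551 to 0.690). Skap1, a signalling adaptor beside cluster B, was higher in germ cells like that cluster (-2.94 ± 0.15). Skap2, beside cluster A, was higher in germ cells unlike that cluster (-0.39 ± 0.14, adjusted p 0.00681), and Mtx2, beside cluster D, was not called (0.05 ± 0.15).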

How the data were processed

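Droplet libraries (10x Genomics) were aligned by the authors to mm10 with Cell Ranger 7.0.1, per the study's methods. The authors deposited whole UMI counts for each gene in each barcode, without normalization. Of EV 2 only the barcodes were used here. At most 22 barcodes were shared by any pair of libraries. The Hox members and all lists were chosen with earlier results of these data known.

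A cell needed more than 400 and fewer than 4000 genes and less than 10% of its UMIs from mitochondria, and doublets were removed by Scrublet score at 0.8% per 1000 cells (scanpy 1.11.5, Python 3.11.15). Cells of neither class numbered 1495, 1381 and 2044, and 223, 174 and 30 cells lay near the limit between classes. Counts were summed per library and class, and the 6 sums were tested with edgeR 4.0.16 (glmQLFit, glmQLFTest, TMM factors, library as a block, at least 20 UMIs, Benjamini-Hochberg, threshold 0.05, R 4.3.3), without the marker genes of the class rule. The labels call the libraries biological replicates without naming separate animals. With the library as a block, p-values measure how the difference between the classes varies over the 3 libraries, a spread that may be technical. EV 1, treated otherwise than the vehicle libraries and with 325012 germ cell UMIs, counts among them. DESeq2 1.42.0 was an alternative. Log2 ratios of EV 1 to the vehicle mean had 0.5 UMI added. Intervals are exact Poisson (levels), exact conditional (ratios) and Wilson (shares of cells). Members with at least 100 UMIs were named with all levels, others by UMIs, and from each list the genes with most UMIs, up to 4, and 2 genes that these rules name are not reported here. Coordinates and exon lengths came from GENCODE M21 (GRCm38, the assembly of mm10, in another release than the one counted), and promoters from RefSeq (GRCm38.p6).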

Additional observations from a re-analysis of the deposited data

Results flagged for a closer look

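In 6 members EV 1 over the mean of the vehicle libraries, as a log2 ratio, pointed in opposite directions in germ and feeder cells, in each case outside the range of the vehicle libraries. Germ cells gave 2.54 for Hoxa5, 2.92 for Hoxa7, 1.04 for Hoxb3, -1.26 for Hoxb5, -3.64 for Hoxb6 and 1.40 for Hoxc13. Feeder cells gave -0.89, -0.59, -0.45, 0.27, 0.70 and -0.26 for the same genes. The value of Hoxb6 in germ cells comes from 0 UMIs in EV 1 and depends on the 0.5 UMI added. With 3 counts as the limit it was at least 2.07-fold lower, while the exact interval of its ratio reached up to 0.597 times. The germ values rest on 0 to 4 UMIs in EV 1, and the difference between the classes was not tested.

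Cells outside the comparisons also carried Hox UMIs. In cells of neither class, cluster A stood at 64.0 CPM in EV 1 beside 50.7 and 59.1 CPM in the vehicle libraries, and cluster C at 34.1 beside 23.2 and 21.5 CPM. Cluster B went the other way, at 45.4 beside 178 and 166 CPM, and all Hox genes stood at 146 beside 255 and 249 CPM. In barcodes removed by the filters, cluster C stood at 31.6 CPM (8 UMIs, 13.6 to 62.2) in EV 1 beside 25.0 and 27.3 CPM. Cluster A stood there at 35.5 beside 64.3 and 79.0 CPM, and all Hox genes at 114 beside 154 and 180 CPM. The list of 15 fibroblast genes, which includes those of the class rule, in the cells of neither class stood at 1909 CPM in EV 1 beside 1137 and 1141 CPM, and its part in these values was not tested.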

How the results depend on the processing

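The counts of Hox genes called stayed within 1.5 times of the 12 and 7 reported under every setting, at 8 to 13 in feeder and 6 to 8 in germ cells. With DESeq2, Hoxb6, Hoxc13 and Hoxd4 lost the call. Without one library, Hoxd4 (each library) and Hoxd3 (vehicle 2) fell under the minimum of 20 UMIs. With no minimum beyond 1 UMI, Hoxa6 and Hoxd8 were added. The 3 members near 0 turned their direction. Hoxb3 gave -0.24 without TMM factors, Hoxb9 gave 0.12 with DESeq2, and Hoxc9 gave -0.27 without TMM factors, -0.0068 with DESeq2 and -0.047 with doublets kept. Without one library in turn they ranged from -0.094 to 0.20, from -0.11 to 0.21 and from -0.28 to 0.245.

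Polycomb genes higher in feeder cells numbered 3 without TMM factors, 3 with DESeq2 and 2 to 5 without one library, from 5. Caudal genes higher in germ cells fell to 0 with DESeq2, and to 0 to 1 without one library. Without one library, Trithorax genes numbered 1 to 2 in feeder and 5 to 8 in germ cells, other cluster genes in germ cells 2 to 5, and all genes higher in germ cells 4461 (without vehicle 2) to 7284 (without EV 1). The cause was not tested.

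The vehicle mean in germ cells was 272.8 CPM with doublets kept and 266.9 CPM under a stricter class rule, and that in feeder cells 160.9 CPM under the stricter rule. EV 1 over the mean of the vehicle libraries (log2), given for doublets kept, the stricter rule, TMM factors and DESeq2 size factors in this order, was -0.59, -0.56, -0.70 and -0.69 for all Hox genes in germ cells, -0.81, -0.79, -0.93 and -0.92 for their cluster B, and -0.65, -0.72, -0.57 and -0.56 for cluster A in feeder cells. Under the last 3, it was -0.49, -0.34 and -0.33 for all Hox genes in feeder cells, -0.46, -0.24 and -0.23 for cluster B and 0.057, 0.10 and 0.11 for cluster C. For cluster D it was -0.099, -0.63, 0.066 and 0.072, -0.062 without the upper limit on genes and -0.032 with 1 UMI added, and 1 UMI added gave -0.60 and -0.82 for all Hox genes and cluster B in germ cells. The feeder share of cluster A was 54.3% with doublets kept, and that of cluster D 1.46% then and under the stricter rule. A Hox UMI was found in 15.1% of vehicle feeder cells at 1000 UMIs, 28.2% at 2000 UMIs and 45.9% without thinning, the last set by depth. No paired analysis was possible because vehicle and EV shared only replicate number 1 among the libraries analysed here.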
